A study of Mus musculus with 12 samples.

Results

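Topical minoxidil (MXD) was compared with its vehicle (VC) in mouse back skin at 1 week (1W) of daily application, over genes other than the hair keratins. The comparison rests on 2 of the 12 arrays of the series, a dye swap of the same pair of RNA pools, in which MXD RNA carried Cy5 on array 1 and Cy3 on array 2. Whole back skin came from male C57BL/6J mice, 8 weeks old, that had been shaved. From the following day, 200 µL of either 3% MXD or VC (propylene glycol, ethanol and water, 5:3:2) was spread on the back each day. RNA of 6 mice was pooled for each group, so there was 1 pool a side, the spread between mice cannot be seen, and no test across animals exists. Every SD given here is over the 2 arrays (n = 2) and covers measurement error only. VC skin was shaved and wetted with the solvent mixture too, and no untreated skin was analysed here. The vehicle pool of 1W was also hybridised against a pool treated with 10% N-CE, a cell extract of the cactus Notocactus ottonis, on 2 other arrays of the same slide.

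Minoxidil opens ATP-sensitive potassium channels after sulphation and is applied to skin to promote hair growth. Skin that is irritated or wounded follows a well known course. Keratinocytes switch on the stress keratins (Krt6, Krt16, Krt17) and a set of small cornified envelope proteins and release CXC chemokines, which call neutrophils from the blood through their receptor Cxcr2, and neutrophils carry the calcium-binding pair S100a8 and S100a9 in bulk. Back skin of the mouse also holds a sheet of striated muscle, the panniculus carnosus, under the fat, so that muscle genes are abundant in whole skin RNA. Muscle fibres that regenerate or lose their nerve return to embryonic genes such as Myh3 and the fetal acetylcholine receptor subunit Chrng.

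Of 41153 probes read on both arrays, 28347 were well above background in a group. A probe was called where the spot P of the scanner software was under 0.01 on both arrays and the direction was the same on both. The geometric mean fold also had to be above 1.5 or below 0.75, and a group well above background. The P and fold limits are those the study states. The demands on both arrays, direction and background were set here. On the log2 scale 0.75 is nearer to no change than 1.5, so a fall is called more easily than a rise. The spot P describes a spot and not the mice. By these rules 282 probes (0.685%, 265 gene names) were called higher in MXD and 315 (0.765%, 273 gene names) lower. The words rose and fell are used only for called probes, and fold changes are log2 MXD over VC of the processed signals, in arbitrary units. The changes that rose reached further than those that fell, with 91 probes called higher and 22 called lower past 2-fold on both arrays. Of the genes called higher, 30 were hair keratins or keratin-associated proteins, against 0 of those called lower, and these are left aside here. Between the 2 arrays the log2 values correlated with r = 0.57 over 24816 bright probes, and the median SD was 0.12. The tissue carried its markers: Krt5, Krt14, Krt1, Krt10, Lor, Col1a1, Col3a1, Dcn, Pecam1 and Adipoq were all well above background in both pools, none was called by its brightest probe, and their values ran from -0.36 (Adipoq) to 0.43 (Col3a1).

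**Figure D1:**
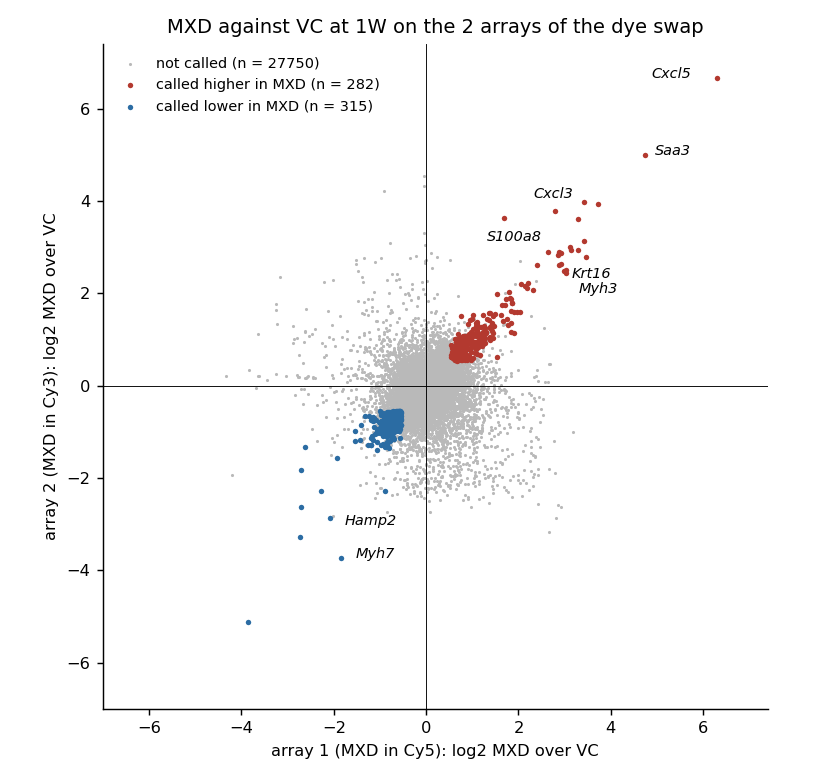
Log2 MXD over VC of each probe well above background in a group, array 1 on the x axis and array 2 on the y axis. Red points are the 282 probes called higher, blue points the 315 called lower and grey points the rest. Cxcl5 and Saa3 lie farthest in the upper right corner, and Myh7 and Hamp2 lie in the lower left.

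Neutrophil chemokines were among the strongest rises. Cxcl5, a neutrophil attractant made by epithelium, had processed signals of 391.5 and 412.1 in MXD on the 2 arrays. In VC they were 4.98 and 4.08, not well above background, so that the difference is a bound, at least 4.93-fold higher in MXD. Cxcl3, a close relative, read 63.7 and 59.8 in MXD against 4.81 and 3.90 in VC, at least 1.5-fold higher. Of the platelet and keratinocyte members, Ppbp rose by 1.27 ± 0.02 and Cxcl1 by 0.94 ± 0.19. The interleukin Il1f6 (the file's name for an IL-36 cytokine of keratinocytes) rose by 0.89 ± 0.22. In all, 5 of 16 measured members of the list of neutrophil chemokines and alarm cytokines rose and 0 fell, beside 1.25% of 18551 genes called higher and 1.27% called lower when each gene is read by its brightest probe. Their median was 0.48 ± 0.03 (SD over the array medians), against -0.01 for all genes. It was 0.21 over members well above background in both pools, 0.14 with no filter on dim genes and 0.25 after normexp and loess, and Cxcl5 and Cxcl3 passed the filter through MXD alone. Il6 read 1.11 and 0.95 on the 2 arrays and was not called, and Il1b 0.48 and 0.56. Tnf (-0.38) and Il1rn (-0.24) lay below 0 on both arrays, also uncalled. The chemokines that call monocytes and lymphocytes did not share this pattern: of 28 measured, 0 rose, and Cxcl9 (-0.78 ± 0.04) and Ccl21a (-0.68 ± 0.09), attractants of T cells and dendritic cells, fell.

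Part of the list of neutrophil genes rose beside these chemokines. S100a8 read 4727 and 6654 in MXD against 638.4 and 895.6 in VC, a log2 difference of 2.89 on each array. S100a9 read 10009 and 13923 against 1884 and 2282, with a mean of 2.51 ± 0.14. Both MXD readings lay far above both VC readings for this pair, which together form calprotectin. In N-CE at 1W, against the same VC pool, S100a9 was 1.09 ± 0.03 and called higher, and S100a8 was 0.28 and not called. The surface lectins Clec4d (2.13 ± 0.09) and Clec4e (1.83 ± 0.05), the formyl peptide receptor Fpr1 (1.75 ± 0.32) and the chitinase-like Chil3 (1.39 ± 0.09) rose as well. The chemokine receptor Cxcr2 and the collagenase Mmp8 rose from VC readings not well above background, by at least 1.26-fold and 1.21-fold. Of 26 measured members 12 rose and 0 fell, with a median of 0.49 ± 0.05. The other 14 measured members were not called. They included granule genes, such as Mpo, Ltf and Lcn2, and surface genes, such as Itgam, Il1r2 and Cxcr4. Mpo read -0.32 and 0.09, Ltf (-0.62) was not well above background in MXD, Lcn2 read 0.36 and -0.45, and Ngp, Elane, Cd177, Trem1 and Cxcr1 were below background in both pools. In pooled whole skin, more cells of a type and more RNA per cell cannot be told apart. Which cells of the skin made the RNA of these genes was not tested. Other leukocyte lists moved less: 0 of 23 measured T and NK cell genes, 0 of 9 B cell genes and 1 of 12 mast cell genes (Hdc, which neutrophils share) rose.

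The stefin A cluster on chromosome 16 rose as a block. These genes encode small inhibitors of cysteine proteases, made by neutrophils and by keratinocytes. All 7 measured members were called higher, with a median of 2.84 ± 0.04. Stfa1 read 14198 and 18467 in MXD against 1972 and 2586 in VC (2.84 ± 0.01), and Stfa3 rose by 2.15 ± 0.05. Stfa2l1 (3.27 ± 0.21), Stfa2 (3.05 ± 0.08), Csta2 (1.53 ± 0.19) and Csta1 (1.03 ± 0.07) followed, and Cstdc4 rose from a VC reading not well above background. The members are near copies, and 3 of the 21 pairs of their 60-base probes share an unbroken run of 20 bases or more (the longest is 25), so that reads on neighbours are not fully independent.

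Among acute phase genes the rise was narrow. Saa3, the serum amyloid A made outside the liver by macrophages, fat and epithelium, had the largest fold among probes bright in both pools. It read 1614 and 1865 in MXD against 60.8 and 58.3 in VC, which is 4.73 and 5.00 on the log2 scale, a 29.1-fold difference of means. Its probe lies at chr7:53968031-53968090 (mm9, minus strand). When the raw signals were corrected by normexp (offset 50) and loess in place of the processed signals, the value was 3.41. The same alternative took Clec4e from 1.83 to 0.38, Fpr1 from 1.75 to 0.54, Stfa2 from 3.05 to 1.99, Lce3f from 2.89 to 1.71 and Prg4 from 2.77 to 1.46, with no change of sign. Saa1 rose by 1.22 ± 0.20, and Saa2 read 0.50 and 0.95. The other 17 of 19 measured members were not called, among them Hp (-0.05), Lbp (-0.14) and Orm1 (-0.24), and Fga, Fgg, Crp, Apcs, A2m and Saa4 were below background in both pools. The median of the list, 0.14 ± 0.03, became -0.0047 under the other background correction, while Saa3 and Saa1 kept their direction.

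The promoter of Saa3 from RefSeq (GRCm38.p6, chr7:46715677-46715926, minus strand, the 250 bases before the start) is shown because Saa3 led the measured rises. Capitals mark TTNNGNAA, the letters that C/EBP factors of the acute phase response bind, on either strand.
Saa3: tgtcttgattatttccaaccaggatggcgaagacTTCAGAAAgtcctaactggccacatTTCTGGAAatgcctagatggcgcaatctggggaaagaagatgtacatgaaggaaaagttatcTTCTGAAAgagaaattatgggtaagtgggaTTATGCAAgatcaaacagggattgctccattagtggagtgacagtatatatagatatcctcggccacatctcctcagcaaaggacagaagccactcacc
The window holds 4 such matches, from 216 to 99 bases before the start. Of 27018 promoters of that length, 36.9% hold a match or more, as do 8 of the 11 rising and 5 of the 12 uncalled neutrophil genes with a listed promoter and 11 of the 14 uncalled acute phase genes. A match is a stretch of letters and shows no binding.

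Among keratinocyte genes Krt16, Krt6b and 9 of 18 stress-type envelope genes rose, beside 1 of 29 genes of resting differentiation. Epidermis and hair follicle were not separated in this whole skin RNA. Krt16, a keratin of the wound edge, read 22680.5 and 24800.5 in MXD against 2997 and 3990 in VC, a mean of 2.78 ± 0.20 (chr11:100107405-100107464, mm9, minus strand). Krt6b, its partner, read 2297 and 2320 against 562.2 and 765.9, a mean of 1.81 ± 0.31 (chr15:101509450-101509509, mm9, minus strand). The MXD readings of both genes lay wholly above those of VC, while the paralog Krt6a read 0.78 and 0.38 without a call and Krt17 0.11 and -0.05. Of 32 measured wound-edge genes, 6 rose and 0 fell (median 0.16 ± 0.06). Beside the keratins these included the collagenase Mmp13 (1.19 ± 0.05), the matrix protein Tnc (0.94 ± 0.18) and the gap junction gene Gjb6 (0.73 ± 0.08). Growth factors and integrins of the same list stayed near 0, such as Hbegf (-0.02 and 0.06) and Itga6 (-0.14 and -0.14).

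Of 18 measured stress-type cornified envelope genes 9 rose and 0 fell, with a median of 0.91 ± 0.19. Sprr2d, a small proline-rich protein cross-linked into the envelope, read 2309 and 2850 in MXD against 236.7 and 373.1 in VC (3.11 ± 0.25). Lce3f, a late envelope gene of disturbed skin, rose by 2.89 ± 0.04, and Sprr1b by 1.73 ± 0.16. Sprr2f, not well above background in VC, was at least 1.46-fold higher in MXD. Sprr2k, Sprr2b, Sprr2e, Sprr2h and Lce3c rose by 1.29 to 1.07. The enzymes and scaffolds of the envelope did not follow: Ivl (0.07 and 0.08), Tgm1 (-0.12 and 0.01), Tgm3 (0.27 and -0.17) and Sprr1a (-0.05 and -0.09) were uncalled. Sprr2a1 has a pair of probes that disagree, 2.20 for the dimmer, which was called higher, and 0.11 for the brighter, which was not. It is thus not counted among the 9. Of the 36 pairs among the probes of the 9 rising genes, 3 share a run of 20 bases or more. Of 29 resting differentiation genes, 1 rose (the filaggrin gene Flg, 0.85 ± 0.08) and 0 fell, with a median of -0.05, and 0 of 10 basal genes were called.

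The small proline-rich genes that rose by their brightest probe shared a feature that the call did not use. Capitals mark TGANTCA, the AP-1 letters, in the 250 bases before the start (GRCm38.p6) of Sprr2d (chr3:92338890-92339139, plus strand), Sprr2f (chr3:92364937-92365186, plus strand) and Sprr1b (chr3:92438780-92439029, minus strand).
Sprr2d: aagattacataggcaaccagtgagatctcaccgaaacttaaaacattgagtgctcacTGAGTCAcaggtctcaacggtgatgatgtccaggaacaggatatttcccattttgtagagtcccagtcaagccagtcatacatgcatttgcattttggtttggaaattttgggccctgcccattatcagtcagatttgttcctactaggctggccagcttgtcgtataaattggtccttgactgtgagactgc
Sprr2f: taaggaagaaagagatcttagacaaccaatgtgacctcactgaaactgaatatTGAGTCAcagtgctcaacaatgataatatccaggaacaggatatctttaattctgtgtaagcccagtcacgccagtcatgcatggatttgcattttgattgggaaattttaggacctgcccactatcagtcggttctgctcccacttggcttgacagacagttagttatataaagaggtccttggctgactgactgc
Sprr1b: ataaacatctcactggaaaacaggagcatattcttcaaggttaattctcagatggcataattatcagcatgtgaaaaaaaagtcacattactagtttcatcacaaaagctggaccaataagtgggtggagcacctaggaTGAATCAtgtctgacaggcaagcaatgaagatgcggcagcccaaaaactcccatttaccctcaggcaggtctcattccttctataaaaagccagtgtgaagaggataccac
The match lies 193 bases before the start in Sprr2d, 197 in Sprr2f and 111 in Sprr1b. All 7 Sprr genes that rose by their brightest probe and neither of the rising Lce3 genes held a match, which makes 7 of 9. Beside this stand 6.87% of all promoters and 2 of 7 uncalled members of the list with a listed promoter (Sprr1a and Ivl). Sprr2a1, uncalled by its brighter probe but called higher by its dimmer one (2.20), held no match. The Sprr2 genes are copies of each other with alike promoters, so that these are not 7 independent cases.

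Genes of the wound bed rose in smaller number. The list of macrophage and monocyte genes had 5 of 26 members called higher and 0 lower (median 0.30 ± 0.02), and 24 of the 26 were above 0 on both arrays. In N-CE at 1W, against the same VC pool, the median of this list was 0.31 ± 0.01 with 0 called. Spp1 (osteopontin, 2.15 ± 0.02), the lipid receptor Trem2 (1.40 ± 0.05), the scavenger receptor Msr1 (0.69 ± 0.08), Ms4a7 (0.67 ± 0.01) and Arg1, arginase (0.59 ± 0.06), were those called. Of 32 genes of granulation tissue and matrix, 7 rose and 0 fell (median 0.29 ± 0.04). Prg4, the lubricin of joint and fascia, led with 260.8 and 327.3 in MXD against 41.7 and 44.05 in VC (2.77 ± 0.18). The protease inhibitor Timp1 (1.22 ± 0.16), the wound collagen regulator Cthrc1 (1.03 ± 0.13), Col12a1 (0.88 ± 0.12) and Col8a1 (0.78 ± 0.08) followed. The bulk collagen Col3a1 read 0.41 and 0.45, and Col1a1 0.05 and 0.08 by its brightest probe, though a dimmer Col1a1 probe was called at 0.90 ± 0.11. Of 20 epithelial antimicrobial genes 4 rose and 0 fell (median 0.06 ± 0.05). Reg1 and Reg3g, secreted lectins, rose at least 2.26-fold and 1.30-fold. Neither was well above background in VC, so both passed the filter through MXD alone. The protease inhibitors Wfdc12 (1.08 ± 0.01) and Slpi (0.96 ± 0.14) rose too. Of 23 measured clotting genes 2 rose, among them the clotting factor F10 (0.80 ± 0.17).

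**Figure D2:**
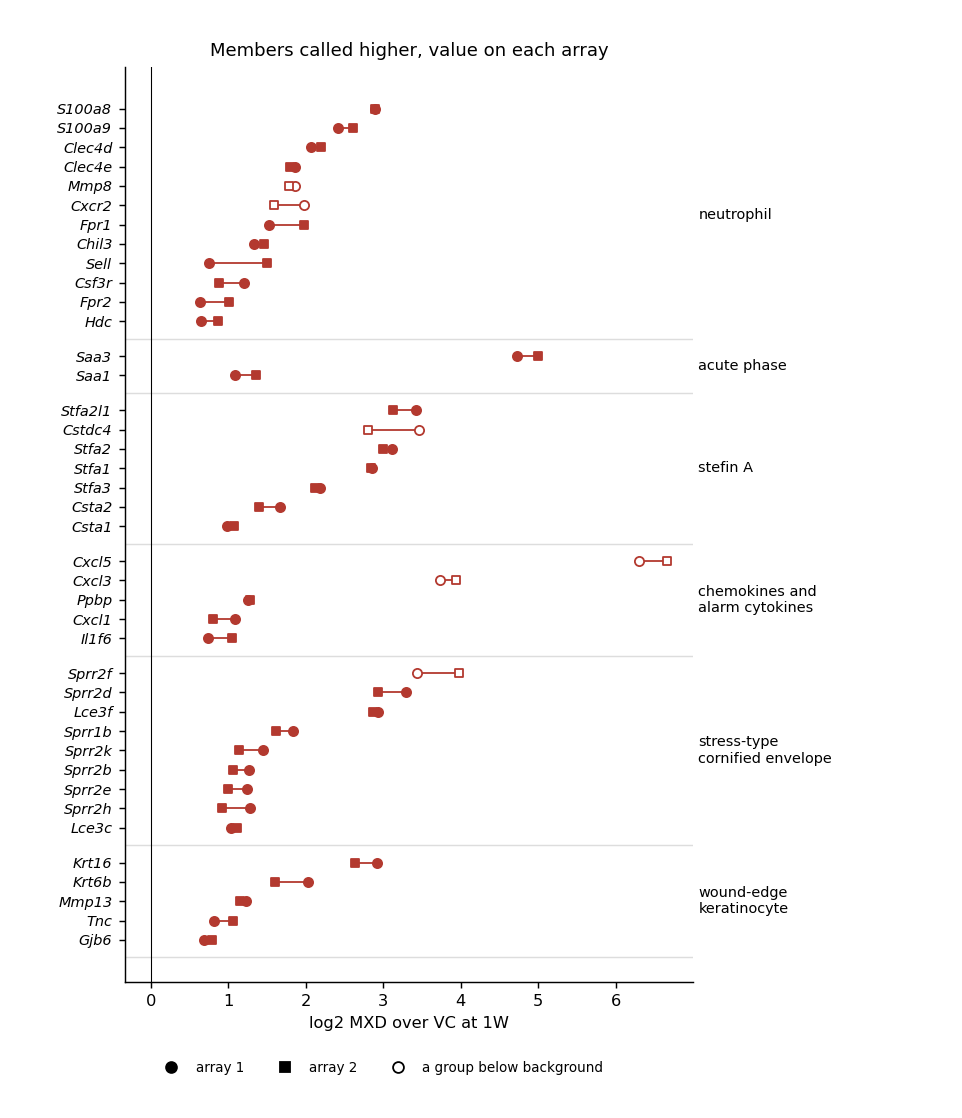
Log2 MXD over VC at 1W of members called higher in 6 gene lists, with a circle for array 1 and a square for array 2. Open symbols mark genes not well above background in VC, whose plotted value is no measure of size, and the 2 arrays of Saa3 lie at 4.73 and 5.00.

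Striated muscle genes moved the other way. Of 15 measured fast sarcomere genes 9 fell and 1 rose, with a median of -0.66 ± 0.11. The fast myosin Myh4 read 33826 and 22975 in MXD against 64280 and 55482 in VC (-0.93 and -1.27 on the log2 scale). Actn3, the fast fibre actinin, fell too (-1.13 and -0.90). The myosin binding protein Mybpc2 fell by 0.95 on the log2 scale, the calcium buffer Pvalb by 0.84 and skeletal actin Acta1 by 0.79. Myh1 read -0.45 and -0.60 and was not called. The fast myosin Myh2 was the exception: it read 31373 and 37755 in MXD against 18752 and 21242 in VC (0.79 ± 0.06). Of its 4 probes 3 were called higher and the other read -0.39 and -0.21. The fast myosins are neighbouring paralogs on chromosome 11, and hybridisation between them was not tested.

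Muscle genes outside the filaments fell too. Of 25 muscle energy genes 12 fell and 0 rose (median -0.65), led by the glycogen phosphorylase Pygm (-1.08 ± 0.38), creatine kinase Ckm (-1.03 ± 0.27) and the phosphorylase kinase subunit Phkg1 (-0.98 ± 0.02). Of 20 calcium and excitation genes 10 fell and 0 rose (median -0.60 ± 0.05), among them the calcium pump Atp2a1 (-0.99 ± 0.30), the junctophilin Jph2 (-0.89 ± 0.02), calsequestrin Casq1 (-0.86 ± 0.06) and the release channel Ryr1 (-0.75 ± 0.25). Of 24 giant and scaffold genes 6 fell, including Ldb3 (-0.93 ± 0.32) and Ttn, titin (-0.55 ± 0.01). The Asb15 and Nmrk2 genes, both of striated muscle, were among the 12 lowest bright probes, at -1.30 ± 0.18 and -1.16 ± 0.05. Of 15 smooth muscle genes 0 were called (median -0.16), with Acta2 at -0.04 and -0.05.

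Some slow muscle genes gave values among the lowest on the arrays, and their level in the vehicle pool stood apart from the later weeks. The slow myosin Myh7 read 110.2 and 28.2 in MXD, where it was well above background on 1 array only, and 393.7 and 378.4 in VC (-1.84 and -3.74, or -1.32 as a mean after normexp and loess; chr14:55589531-55589590, mm9, minus strand). A second probe of Myh7 was at least 2.69-fold lower in MXD. Myl2, the slow myosin light chain, read 27.3 and 39.4 against 179.7 and 140.5 (-2.28 ± 0.63, or -0.96 after normexp and loess). For these genes a high VC pool and a low MXD pool cannot be told apart. The same VC pool read 325.8 and 301.9 for Myh7 on the N-CE arrays, where N-CE read 19.1 and 21.0. In the later VC pools the readings of this probe were 8.73 and 8.00 at 2W and 7.19 and 6.13 at 3W, not well above background. The high reading of Myh7 was thus found in the VC pool of 1W on all 4 of its arrays and in no VC pool of a later week, while processed signals are not scaled between arrays. Myl2 gave the same order, with 143.8 and 138.4 in VC on the N-CE arrays against 22.1 and 21.4 in N-CE. Of the remaining slow genes, Myl3 (-0.62 ± 0.07) and Mybpc1 (-0.61 ± 0.06) fell, while Tnni1 (0.77 and 0.43) and Tnnt1 (0.20 and 0.48) were above 0 and uncalled.

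Against this fall, some genes of the embryonic muscle and denervation lists rose. The RNA is of whole skin, and whether muscle fibres were the source of Ankrd1, Gadd45a and Dlk1 was not tested. Myh3, the embryonic myosin, read 210.9 and 261.9 in MXD against 28.6 and 42.9 in VC (2.75 ± 0.19) by the probe at chr11:66914857-66914916 (mm9, plus strand). Its other probe gave 2.73 ± 0.37, with VC well above background on 1 of its arrays, and after normexp and loess the values were 1.33 and 1.18. Sln, sarcolipin, which slows the calcium pump, rose by 1.22 ± 0.10, the myogenic factor Myog by 1.06 ± 0.08, the embryonic light chain Myl4 by 0.88 ± 0.15 and Dlk1 by 0.73 ± 0.19. Of 22 measured embryonic and regenerating genes 5 rose and 2 fell, so that the median of 0.01 ± 0.03 describes neither group. Those that fell were Myh8, the perinatal myosin (-0.86 ± 0.12), and desmin. Myh8 was read by its bright probe (32989 and 35051 in VC), and its other probes were below background in both pools. Hybridisation of the bright probe with RNA of the adult fast myosins was not tested. Ankrd1, a cardiac ankyrin repeat gene that stretched or denervated fibres switch on, read 1522 and 1454 in MXD against 174.0 and 190.0 in VC (3.03 ± 0.14). Gadd45a, a stress gene of denervated muscle, rose by 0.85 ± 0.12.

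The acetylcholine receptor subunits of muscle gave mixed values. Chrng, the fetal subunit, read 53.8 and 75.4 in MXD against 5.52 and 6.22 in VC by the probe that was called, at least 1.53-fold higher. Its other probe, the brighter over the series, read 25.2 and 42.1 against 19.5 and 15.05 and was not called. As a gene takes its brightest probe, Chrng counts as uncalled in its list. Chrna1, the subunit common to both forms, rose by 0.64 ± 0.06 by its brighter probe. Its dimmer probe, well above background in both pools, read 0.43 and 0.06 and was not called. Chrne, which replaces Chrng in the adult receptor, fell by 0.64 on the log2 scale. Chrnb1 read -0.14 and -0.33, and Chrnd was read above background on 1 array of MXD only and gave 1.52 and -1.79. Of the 22 measured denervation and atrophy genes 3 rose and 1 fell, and the ubiquitin ligases of atrophy, Fbxo32 (-0.55 and 0.18) and Trim63 (-0.11 and -0.02), were not called.

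The promoters of Chrng and Myog are shown because Myog and the dimmer of the 2 Chrng probes were called higher while many adult muscle genes fell. Capitals mark CANNTG, the E-box letters of the MyoD family, in the 250 bases before the start (GRCm38.p6, plus strand; chr1:87205561-87205810 for Chrng and chr1:134289754-134290003 for Myog).
Chrng: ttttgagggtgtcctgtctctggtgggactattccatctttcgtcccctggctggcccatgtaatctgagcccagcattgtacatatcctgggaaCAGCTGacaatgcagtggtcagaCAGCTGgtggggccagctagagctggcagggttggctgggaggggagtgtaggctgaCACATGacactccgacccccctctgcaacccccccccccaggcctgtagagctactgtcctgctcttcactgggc
Myog: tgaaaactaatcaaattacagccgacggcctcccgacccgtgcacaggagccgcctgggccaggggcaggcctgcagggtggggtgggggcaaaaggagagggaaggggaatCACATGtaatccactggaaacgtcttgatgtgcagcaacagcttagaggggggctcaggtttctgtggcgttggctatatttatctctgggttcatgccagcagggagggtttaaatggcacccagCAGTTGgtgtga
These windows hold 3 and 2 matches. The letters do not set these genes apart, since 66.1% of all promoters hold them, as do 11 of 11 falling muscle energy genes with a listed promoter.

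**Figure D3:**
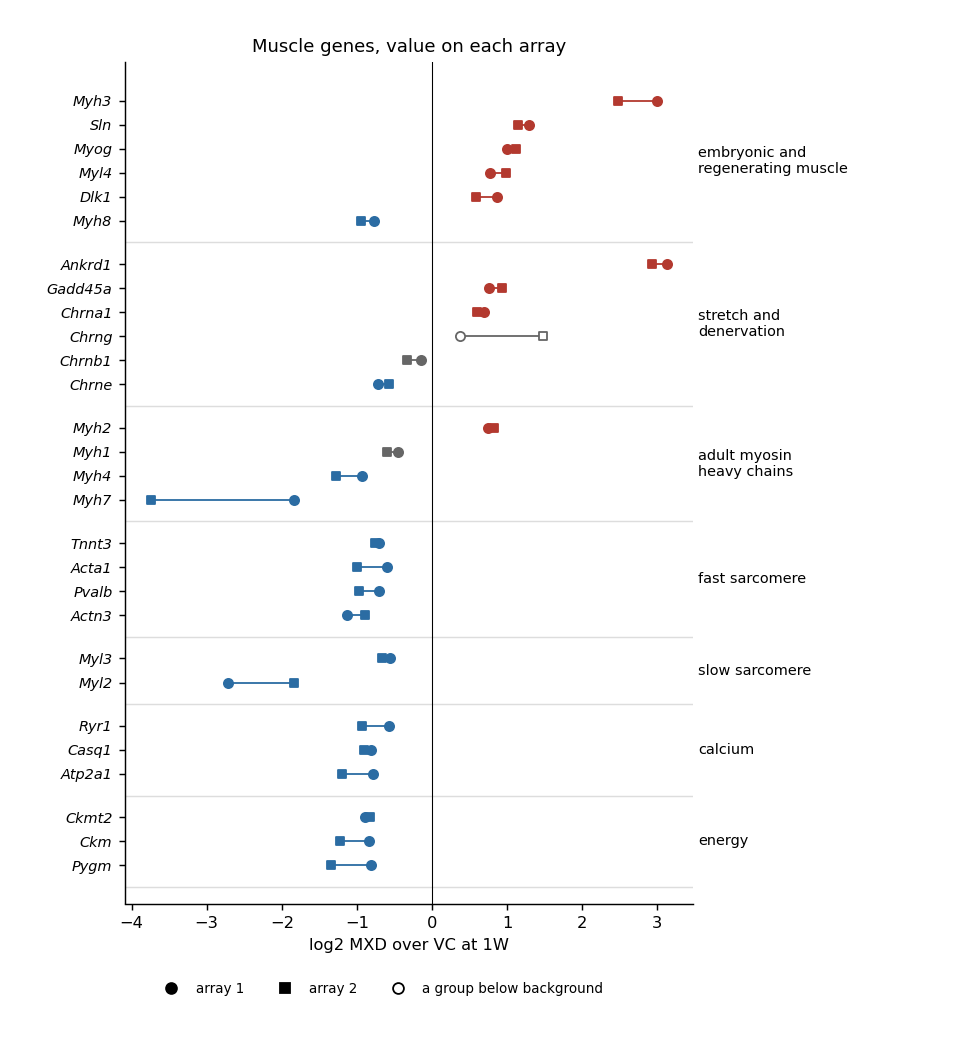
Log2 MXD over VC at 1W of muscle genes, with a circle for array 1 and a square for array 2, red for called higher, blue for called lower and grey for uncalled genes, and open symbols where a group was not well above background. Myh3 and Ankrd1 lie between 2.48 and 3.13, and Myh4, Myh7 and the genes of the filaments, calcium and energy lie below 0.

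Some lipid and interferon genes fell as well. Of 23 sebaceous and lipid synthesis genes 4 fell, led by the wax synthase Awat2 (-1.13 ± 0.06) and the reductase Far2 (-0.77 ± 0.07), and 1, the lipoxygenase Alox8, rose. All 15 adipocyte genes were below 0 on both arrays (median -0.33 ± 0.01), and 1, the glucose transporter Slc2a4, was called. Of 31 interferon-induced genes 4 fell and 0 rose: Gbp2b, at least 1.29-fold, and Gbp6 (-1.23 ± 0.24), Cxcl9 and Gbp2 (-0.68 ± 0.07). The muscle and vessel forms of the channel that minoxidil opens are built on Kcnj11 and Kcnj8. Both fell, by 0.72 and 0.65 on the log2 scale in that order. The receptor subunit genes of this channel family, Abcc8 (0.31 and -0.06) and Abcc9 (-0.40 and -0.37), were not called. Hamp2, a hepcidin-like gene, read 1701 and 1018 in MXD against 7220 and 7452 in VC (-2.48 ± 0.56), and Hamp was at least 1.73-fold lower. Among genes of no list, BC048679 fell by 2.67 on the log2 scale, as did Padi2, which converts arginine to citrulline (-1.23 ± 0.06), Gsta3, a glutathione transferase (-1.16 ± 0.02), and Apol7a (-1.26 ± 0.39). Against the same VC pool BC048679 was -2.71 in N-CE as well, and Hamp was -2.41 and called lower there, while Hamp2 was -0.44 and not called. Of 41 measured keratin-associated proteins of the hair shaft 25 rose (median 0.79 ± 0.03). No gene of the cell cycle (30), endothelial (18) or immediate early (23) lists was called, although 29 of the 30 cell cycle genes were above 0 on both arrays (median 0.35 ± 0.02).

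**Figure D4:**
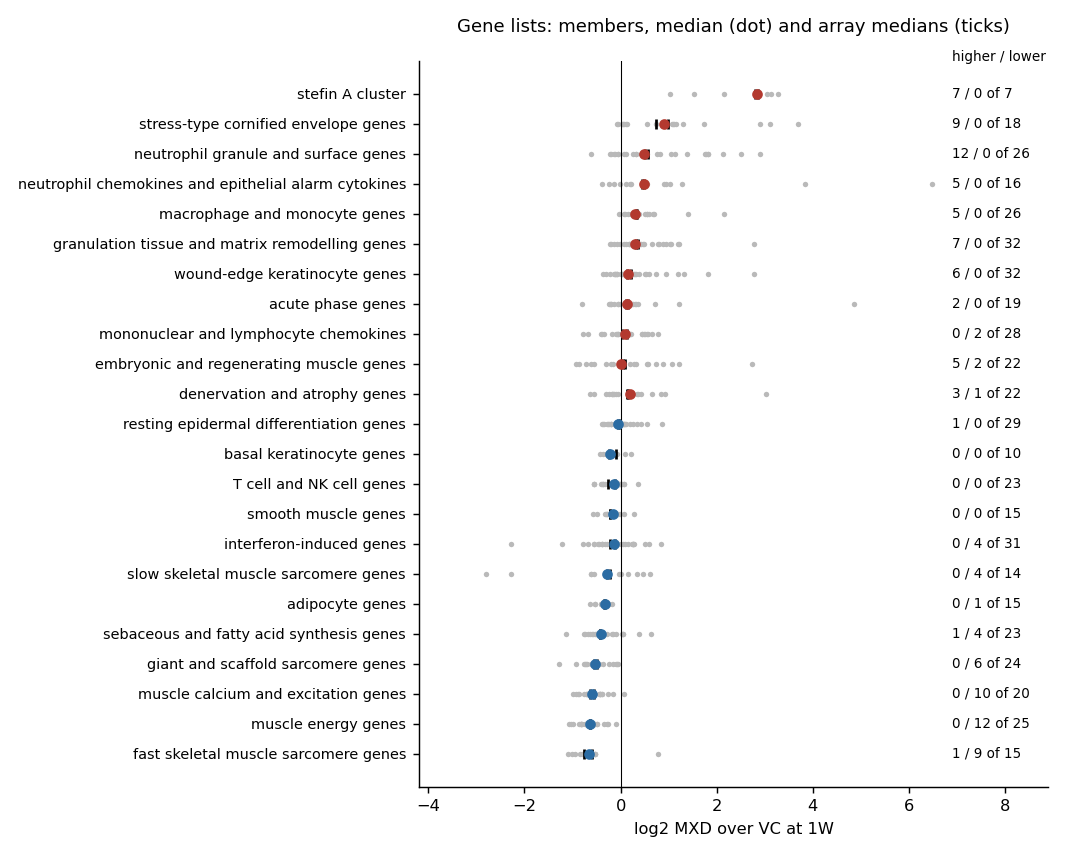
Log2 MXD over VC at 1W of gene lists. Grey points are the measured members, coloured dots the median of the list, black ticks the medians on each array, and the right column gives the number called higher and lower of the number measured. The stefin A cluster has the highest median at 2.84 and the fast sarcomere genes the lowest at -0.66.

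Later weeks and N-CE were set beside MXD at 1W, each on its own 2 arrays, and no difference between them was tested. Weeks lie on different slides, and the N-CE arrays of 1W share the VC pool, so week and slide cannot be told apart. Saa3 was 1.24 ± 0.31 at 2W and -0.44 ± 0.40 at 3W, against 0.76 and 1.26 on the 2 arrays of N-CE at 1W. Krt16 was 0.81 at 2W, -0.54 at 3W and 0.19 in N-CE, and Krt6b 1.15, -0.25 and -0.51. Among all genes by their brightest probe, 1124 of 17899 were called higher and 1880 lower at 2W. At 3W these were 48 and 47 of 16862, and in N-CE at 1W 99 and 506 of 17758. The neutrophil list, with 12 genes called higher at 1W, had 2 of 22 called higher and 1 lower at 2W (median -0.29). In N-CE it had 3 of 22 called higher and 1 lower (median 0.27). S100a8 was 0.96 and called higher at 2W, and -0.06 at 3W. In the stefin A cluster 2 of 6 were called higher and 0 lower at both 2W (median -0.11) and 3W (median 0.51). Those called were Stfa2l1 (1.03 at 2W, 1.45 at 3W) and Stfa2 (0.74 and 1.38). The wound-edge list had 11 of 30 called higher and 2 lower at 2W (median 0.34), and 0 called at 3W (median -0.09). The stress-type envelope list had 7 of 18 called higher and 1 lower at 2W (median 0.65 ± 0.37) and a median of -0.12 at 3W. The gene called lower at 2W was Sprr2d (-1.56 ± 0.14), and Lce3f was 0.47 there and not called. For the fast sarcomere genes the medians were -1.44 (2W, 15 of 15 called lower), -0.42 (3W) and -0.19 (N-CE). Ankrd1 read -1.51 at 2W, Chrna1 -1.29 and Myh2 -1.22, each called lower there and called higher at 1W, while Myh3 was not well above background in either pool at 2W. In N-CE at 1W Ankrd1 was 0.58, Chrna1 0.01 and Myh2 0.42.

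**Figure D5:**
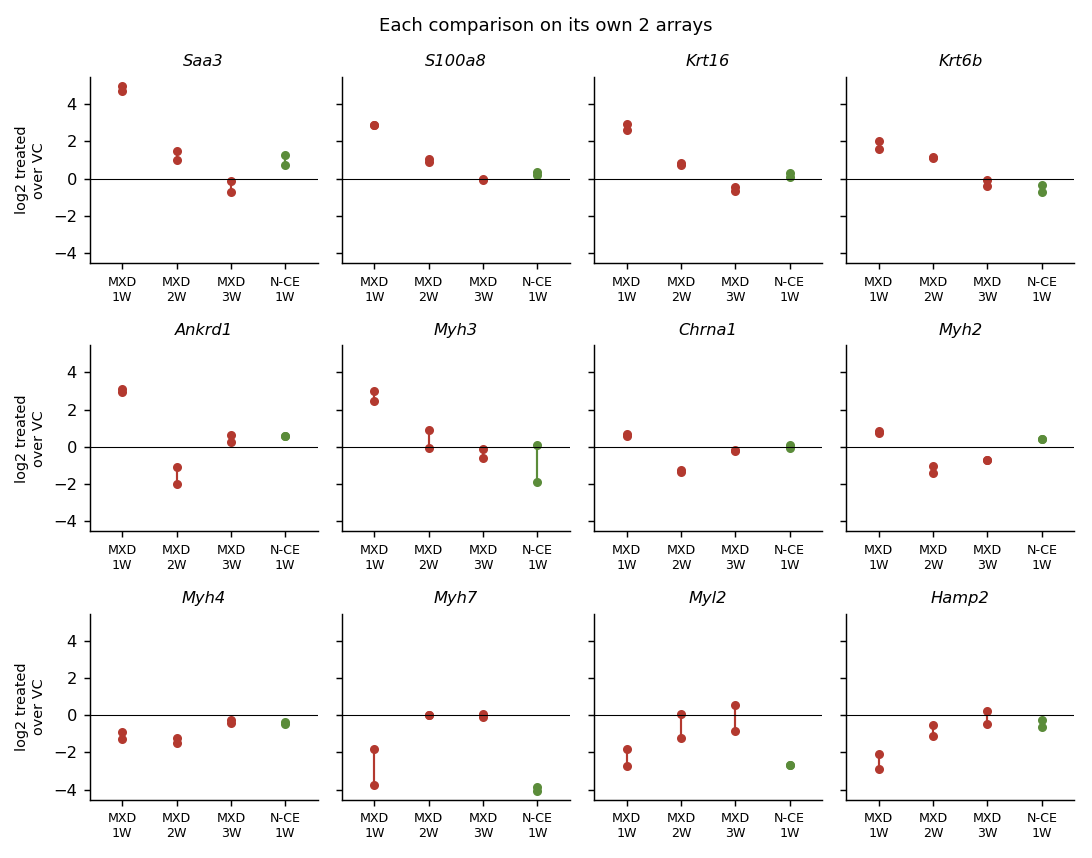
Log2 treated over VC of 12 genes in MXD at 1W, 2W and 3W (red) and N-CE at 1W (green), with 1 point for each of the 2 arrays. Saa3, S100a8, Krt16 and Krt6b are highest in MXD at 1W, Ankrd1, Chrna1 and Myh2 lie above 0 at 1W and below it at 2W, and Myh7 and Myl2 are low in both 1W comparisons, which share 1 VC pool.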

How the data were processed

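RNA of whole back skin was compared on Agilent whole mouse genome 4×44K two-colour arrays with a dye swap. The authors scanned the arrays and extracted them with Agilent Feature Extraction (12.0.3.1 in the file headers), and the deposited processed intensity of each channel is background-subtracted and dye-normalized. The deposited log10 ratio and the spot p-value of the same software were read beside it. Here the log2 ratio of MXD over VC was taken from the processed signals and turned by the dyes in the labels, control spots and outlier spots were left out, and spots of a probe were averaged. Called probes had a spot P under 0.01 on both arrays, one direction, a mean fold over 1.5 or under 0.75, and a group well above background. Where a group was below background on both arrays, the fold was a lower bound against the lowest signal well above background, after normexp (offset 50), loess and Aquantile scaling in limma 3.58.1 (R 4.3.3). A gene took its brightest probe. Named were the 12 probes at each end, up to 6 called members a list and the marker genes, with others that a sentence needed for contrast, which were chosen after their values were seen. A called gene of the wound-edge and clotting lists is counted there and not reported here by name. The members and 39 gene lists were chosen with earlier results of these data known. Promoters came from RefSeq (GRCm38.p6), and probe coordinates are mm9. The dye-swap step was tested on simulated data. Alternatives were the other background correction, filters, fold limits and each array left out.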

Additional observations from a re-analysis of the deposited data

Results flagged for a closer look

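Several values had opposite signs at 1W and at a later week on every array, and these differences were not tested. Each week lies on its own slide, so week and slide cannot be told apart. The median of the neutrophil genes was 0.49 at 1W (26 members) against -0.29 at 2W (22) and -0.03 at 3W (20). After normexp and loess the 3W value was 0.0086, so its sign depends on the background correction. The median of the acute phase genes was 0.14 at 1W (19 members) against -0.09 at 3W (18). After normexp and loess both were below 0, at -0.0047 and -0.07. The median of the embryonic and regenerating muscle genes was 0.013 at 1W against -0.90 at 2W and -0.04 at 3W. Myh2 was 0.79 at 1W against -1.22 at 2W and -0.70 at 3W. Chrna1 was 0.64 at 1W against -1.29 at 2W, and Ankrd1 3.03 against -1.51.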

How the results depend on the processing

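No paired analysis was possible because the replicate numbers mark arrays of the same 2 pools. The 282 probes called higher and 315 lower became 706 and 1850 without the spot P, 107 and 49 past 2-fold on both arrays without it, 185 and 571 after normexp and loess without it, and 648 to 766 and 715 to 994 with 1 array left out. The balance of higher against lower calls thus turned on the setting. The neutrophil median of 0.49 was 0.27 after normexp, 0.32 with no filter on dim probes and 0.50 to 0.57 with 1 array left out. The acute phase median of 0.14 was -0.0047 after normexp, 0.061 with both groups above background and 0.084 with no filter. The stress-type envelope median of 0.91 was 0.50 after normexp and 0.73 to 0.99 with 1 array left out, and the embryonic muscle median of 0.01 was 0.041 to 0.088. The denervation and atrophy median of 0.19 was -0.085 over all probes. The liver and pancreas median of 0.04 was -0.067 after normexp, -0.50 over all probes, -0.22 with both groups above background, -0.17 with no filter and -0.31 to -0.27 with 1 array left out. The cause was not tested. All 135 named genes kept their sign after normexp, and 132 were smaller. With 1 pool a side, the spread between mice is unknown, and for dim genes only a bound or a value that depends on the background correction was had.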
